A study of Mus musculus with 4 samples.

Results

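The genes described here encode integrins, the receptors that tie cells to the extracellular matrix and to other cells, and the cytoplasmic proteins that switch integrins on or link them to actin. They were chosen by symbol alone. Every symbol that starts with Itga or Itgb and continues with digits or a single letter was taken, together with the talins Tln1 and Tln2, the kindlins Fermt1, Fermt2 and Fermt3, the kinase scaffold Ilk, the parvins Parva, Parvb and Parvg, the PINCH proteins Lims1 and Lims2, and Ptk2, Pxn and Vcl. This gave 41 of the 24063 gene symbols, of which 27 are integrin subunits (18 α and 9 β) and 14 are adaptors. The rule left out Itgb1bp1, Itgb1bp2, Itgb3bp and Itgbl1, which carry similar names but are not subunits. All 41 genes passed the filter on low counts, as did 16208 genes in all.

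Mice of strain C57BL6 (C57BL6J in the methods of the study), 8 weeks of age, had been operated on in one of 2 ways. One group underwent left pneumonectomy (PNX), the surgical removal of a lung after which the remaining lobes grow, and was analysed 7 days later, and the other group was sham operated (thoracotomy alone). Lungs were digested with collagenase, and the cells that bound magnetic beads carrying an antibody to CD31 were taken as ECs. Each group had 2 libraries, and the cells of 2 mice were pooled in each library, so a library is a pool and not an animal. The labels name no allele or transgene. The methods name ketamine and xylazine as anesthetics for the surgery and meloxicam as the analgesic after it. Reads had been counted per transcript. Of these, 1 transcript per gene was kept here, and the totals of the kept transcripts lay between 41367438 and 50952879 counts. A count of 3, taken as the smallest level that can be told from 0, corresponded to 0.0589 to 0.0725 CPM, which covers counting error only.

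Endothelial genes were abundant, in keeping with the label, but other cells contributed RNA to every library. Values are given as normalized counts, that is, counts brought to a common library size with edgeR's TMM factors. Summed over 12 endothelial genes they were 551913 and 557599 in the sham libraries against 462218 and 463893 after PNX, and 10 of the 12 were lower and 1 was higher after PNX. Epithelial genes, which CD31 beads should not enrich, summed to 429377 and 431391 in the sham libraries against 265202 and 262270 after PNX. Sftpc, the surfactant protein of alveolar type 2 cells, had 171015 ± 364 normalized counts in the sham group (mean ± SD, n = 2), and Scgb1a1, the club cell secretoglobin, had 145756 ± 959. Per the methods, isolated cells were checked by FACS for CD31, VE-cadherin and the absence of CD45, yet Ptprc, which encodes CD45, had 11566 ± 44.1 normalized counts in the sham group and 11543 ± 171 after PNX. The mice are described as male, yet 44 of 44 genes of chromosome Y had 0 counts in every library and Xist had between 29890 and 36875 counts. The libraries therefore went against the labelled sex in both groups alike.

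An integrin is a pair of an α and a β subunit that cross the membrane once each. The α subunit largely sets the ligand, such as collagen, laminin, fibronectin or a cell adhesion molecule, and the short tail of the β subunit binds the cytoplasmic machinery. Talin and kindlin bind that tail and turn the receptor to its active form, while ILK, PINCH and parvin form a complex that carries the adhesion to actin, and paxillin, vinculin and focal adhesion kinase gather around it. In vessels, β1 integrins anchor ECs to the basement membrane and to fibronectin, and β2 integrins belong to leukocytes, which use them to stop on and cross the endothelium.

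Of the 41 genes, 16 were higher and 19 were lower after PNX at an adjusted p under 0.01, and 6 did not pass (edgeR's quasi-likelihood F test with Benjamini-Hochberg correction across the 16208 genes). The share that passed, 85.4%, has to be read against a high background, since 57.1% of all genes tested passed in either direction, 29.3% as higher and 27.8% as lower. With a log2 fold change beyond 1 in addition, referred to below as called, 2 genes were higher (Itgam and Itgb8) and 2 were lower (Itgad and Fermt1). These made up 9.76% of the 41, and 7.56% of all genes tested were called, 5.9% as higher and 1.66% as lower. Values of the libraries did not overlap between groups for 39 of the 41 genes, as for 81.2% of all genes tested. For the 41 genes the log2 fold changes had a median of 0.03, and for all genes tested the median was 0.00115. Integrin subunits were higher in 14 and lower in 10 of 27 cases, with a median of 0.21. Adaptors were higher in 2 and lower in 9 of 14 cases, with a median of -0.15.

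The direction of the small changes depended on the scale. When libraries were scaled to the 12 endothelial genes in place of all genes, the median of all genes moved up by 0.26 on the log2 scale, and 24 of the 41 genes were higher and 7 were lower. The 16 genes that were higher remained so. Of the 19 lower genes, Itga1, Itga4, Itga8, Itgad, Itgal, Lims2 and Fermt1 were lower on both scales, 9 no longer passed the test, and Itgb5, Parvb and Vcl were higher. Values on this second scale are given below as relative to endothelial genes.

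**Figure D1:**
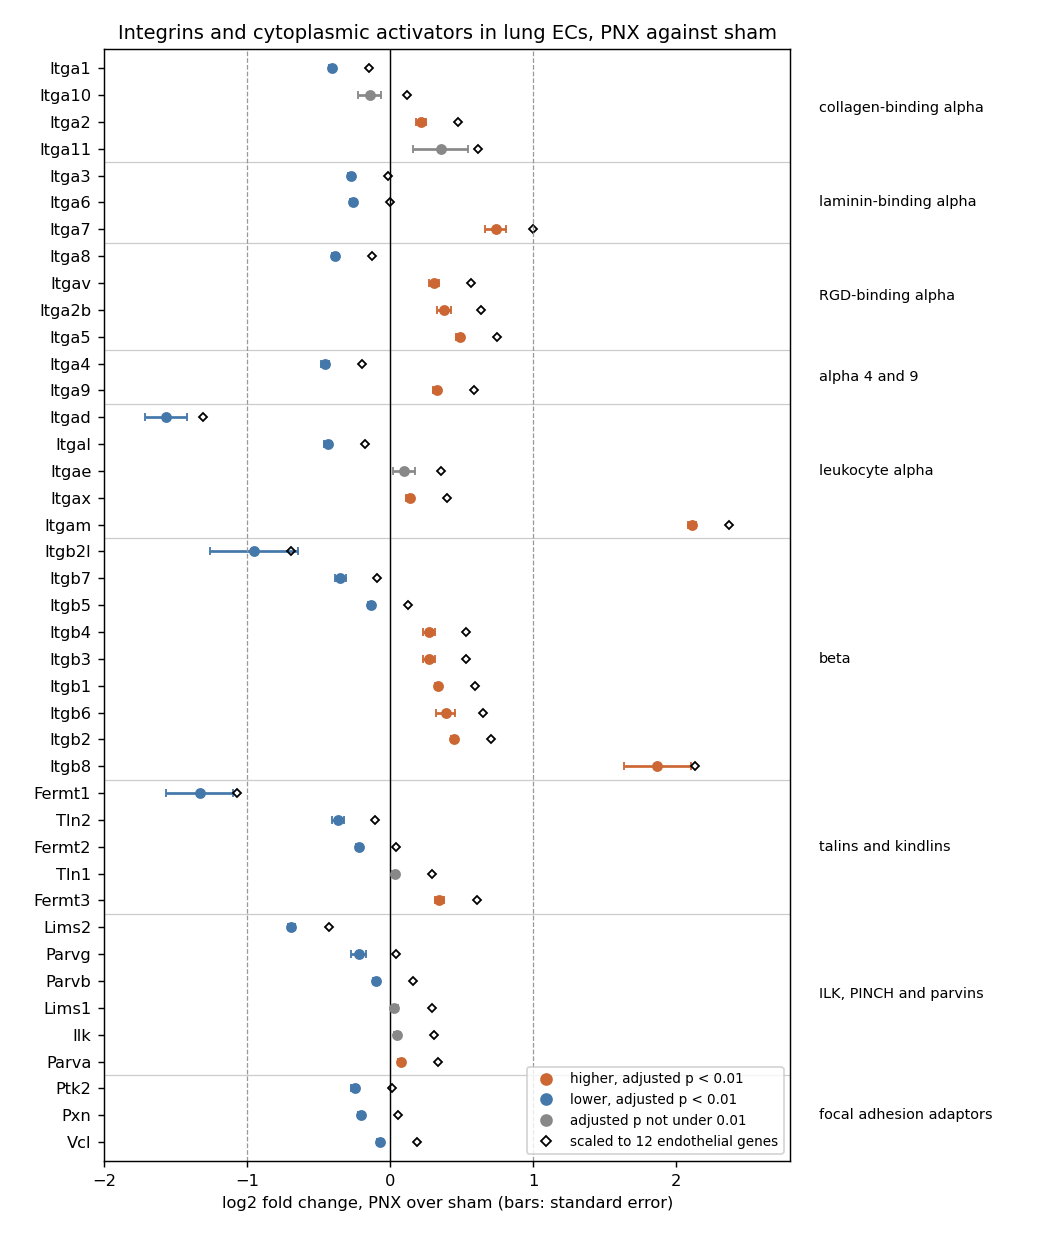
Log2 fold change of PNX over sham for the 41 genes, ordered by role (filled points, with bars for the standard error; 2 libraries per group; the dashed lines mark a log2 fold change of 1 in each direction). Open diamonds give the change relative to 12 endothelial genes, which lies 0.26 higher for the median of all genes. Itgam and Itgb8 lie to the right of the dashed lines and Itgad and Fermt1 to the left on both scales, and Itgb5, Parvb and Vcl move from lower to higher.

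Levels of different genes can be compared only per length, for which the deposited TPM values (transcript counts scaled to length and library) were used. Itgb1, which encodes the common β1 subunit, had the highest level of the 41 genes in both groups, with a mean of 442 TPM in the sham group and 544 TPM after PNX. Fermt2, with 225 and 189 TPM, and Ilk, with 192 and 194 TPM, came next, Fermt2 ahead in the sham group and Ilk ahead after PNX. Among α subunits the laminin receptor gene Itga6 was highest in the sham group, at 137 TPM, ahead of Itga3 at 119 TPM and Itga1 at 116 TPM. The lowest levels in the sham group were those of Itgb8 (0.245 TPM), Itga11 (0.402 TPM), Fermt1 (0.449 TPM) and Itgb2l (0.503 TPM). The called genes Itgb8, Itgad and Fermt1 were thus near the bottom of the order, with Itgad at 1.64 TPM in the sham group and 0.542 TPM after PNX. Itgam stood at 16.1 TPM in the sham group and 67.9 TPM after PNX, and moved from rank 25 to rank 15 of the 41.

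**Figure D2:**
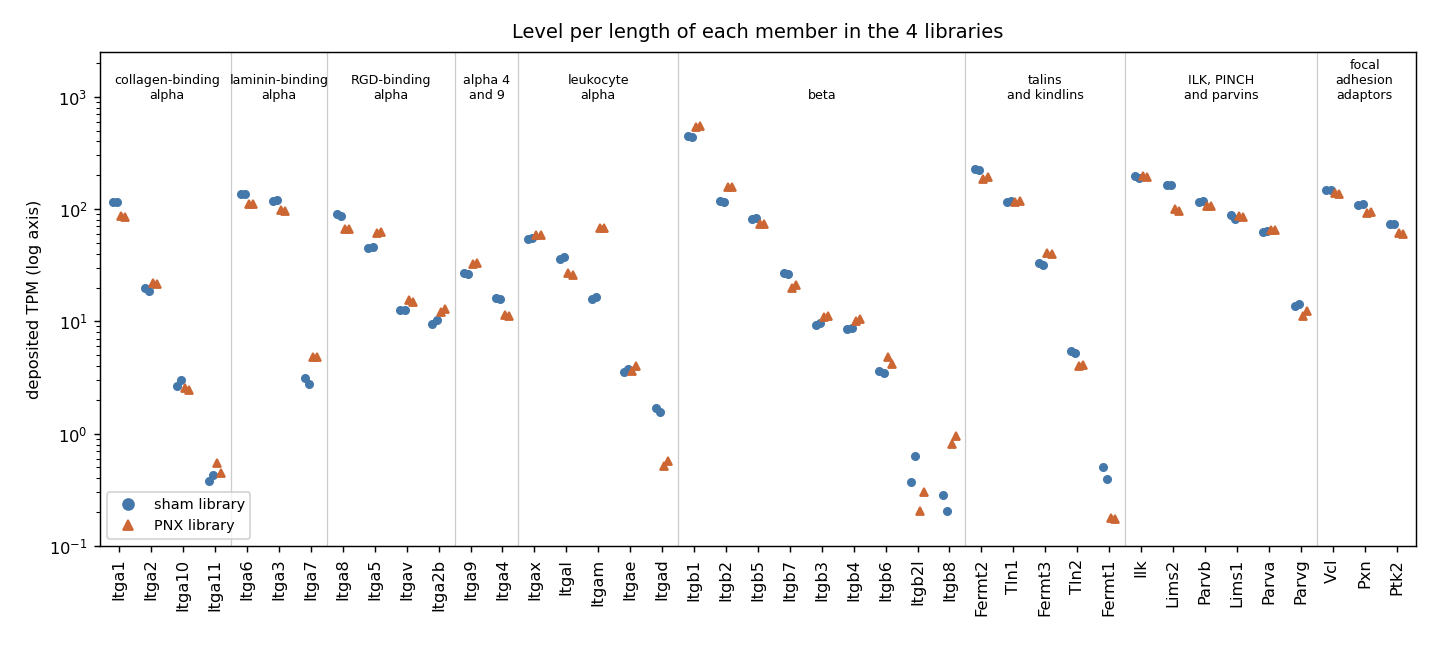
Deposited TPM of the 41 genes in each of the 4 libraries on a log axis, grouped by role (circles, sham; triangles, post-PNX). The levels span from under 1 TPM (Itgb8, Itga11, Fermt1, Itgb2l) to above 400 TPM (Itgb1), the 2 libraries of a group lie close together for most genes, and Itgam shows the widest gap between groups among genes above 10 TPM.

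The α subunits that bind collagen and laminin were dominated by Itga1, Itga3 and Itga6, and these 3 genes were lower after PNX, Itga3 and Itga6 only when scaled to all genes. Itga1, a subunit of the collagen receptor α1β1, had 19950.1 and 20095 normalized counts in the sham libraries against 15213 and 14949 after PNX. Its log2 fold change was -0.41 ± 0.019 (SE, adjusted p = 1.3e-27), and it was -0.15 relative to endothelial genes. Itga3 and Itga6, the laminin-binding partners of β1, fell by 0.27 and 0.26 on the log2 scale (adjusted p = 7.5e-19 and 3.4e-19), but both lost their fall relative to endothelial genes, with -0.01 and 0.0021. The groups did not overlap for any of the 3 genes, as for 81.2% of all genes tested. Itga2, which shares its ligand with Itga1, was higher by 0.21 ± 0.035 (2338 ± 104 to 2715 ± 33.8 normalized counts, adjusted p = 2.4e-07), and the genes lie 26.0 kb apart on chromosome 13.

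Itga7, the third laminin-binding subunit, best known in muscle, was low but higher after PNX. It had 361 and 323 normalized counts in the sham libraries against 573 and 572 after PNX, which gave a log2 fold change of 0.74 ± 0.075 (adjusted p = 3.3e-13). Smooth muscle and pericyte genes were higher in 7 of 8 cases in the same libraries, and their summed normalized counts were 24653 and 24918 in the sham libraries against 32665 and 32549 after PNX. The part of such cells in the Itga7 value was not tested. Itga10 and Itga11, further collagen receptors, did not pass the test. Itga10 had 412 ± 33.0 and 372 ± 12.1 normalized counts (adjusted p = 0.12), and Itga11, known from fibroblasts, had 57.3 ± 5.45 and 72.6 ± 11.3 (adjusted p = 0.1). Relative to endothelial genes Itga11 was higher by 0.61 on the log2 scale (adjusted p = 0.0046).

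The subunits that bind the RGD motif of fibronectin and related proteins moved the other way except for Itga8. Itga5, the α subunit of the classical fibronectin receptor α5β1, had 5610.4 and 5805 normalized counts in the sham libraries against 7942 and 8078 after PNX. This was a rise of 40.4% (log2 fold change 0.49 ± 0.024, adjusted p = 1.5e-26), and the lowest post-PNX library lay well above the highest sham library. Itgav, which pairs with 5 β subunits and binds vitronectin, fibronectin and latent TGFβ, was higher by 0.31 ± 0.032 (adjusted p = 1.2e-12). Itga2b, the platelet subunit αIIb, was higher by 0.38 ± 0.050 (adjusted p = 1.4e-09). Relative to endothelial genes these 3 rises were larger, at 0.75, 0.57 and 0.64. Itga8, a receptor for nephronectin and fibronectin that is typical of mesenchymal cells, fell from 14784 ± 410.1 to 11338 ± 60.9 normalized counts (log2 fold change -0.38 ± 0.021, adjusted p = 1.6e-24), and by 0.12 on the log2 scale relative to endothelial genes. Fibroblast genes were higher in 6 and lower in 1 of 8 cases, and smooth muscle and pericyte genes were higher in 7 of 8. The part of such cells in the Itga8 value was not tested.

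The rise of Itga2b stood beside a rise of platelet genes, which was uneven. In the platelet list 3 of 7 genes were higher and the other 4 did not pass, and the summed normalized counts were 1840 and 1869 in the sham libraries against 2894 and 2787 after PNX. Pf4, the platelet chemokine, which accounts for much of that, had 425 ± 33.7 and 1081 ± 42.9 normalized counts. The part of platelets in the Itga2b value was not tested.

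Itga4 and Itga9 form a small subfamily of α subunits that bind VCAM1, fibronectin and other ligands, and they diverged. Itga4, expressed by lymphocytes and other leukocytes, had 4534 and 4503 normalized counts in the sham libraries against 3327 and 3262 after PNX (log2 fold change -0.46 ± 0.029, adjusted p = 1.5e-21). Itga9, known for its role in lymphatic valves, had 5472 and 5335 in the sham libraries against 6751 and 6815 after PNX (0.33 ± 0.025, adjusted p = 4.6e-18). Neither pair of groups overlapped, as for 81.2% of all genes tested. The directions were the same relative to endothelial genes, at -0.19 and 0.59.

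The mix of α subunits that can pair with β1 shifted as well. In the sham group, the 12 known α partners of β1 summed to 586 TPM, of which Itga6 made up 23.3%, Itga3 20.3%, Itga1 19.8%, Itga8 15.1% and Itga5 7.73%. After PNX the sum was 511 TPM and the shares were 21.8%, 18.8%, 16.7%, 13.0% and 12.2%. The fibronectin and vitronectin receptor subunits Itga5 and Itgav together had 9.73% and 10.0% in the sham libraries against 15.1% and 15.2% after PNX. With Itga8 included, which also binds fibronectin and whose own share fell, the shift was smaller. That share was 25.1% and 24.9% in the sham libraries against 28.0% and 28.3% after PNX. The order of the leading 4 subunits was the same in the 4 libraries. Shares do not depend on how libraries were scaled, and they say nothing about pairs formed on the cell surface.

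**Figure D3:**
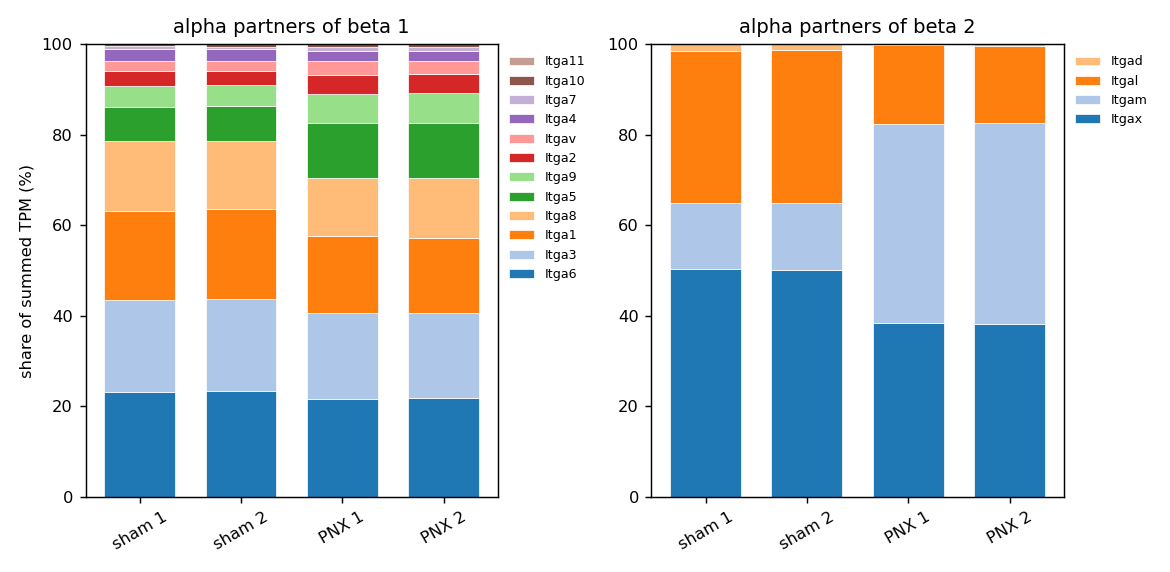
Share of each α subunit gene in the summed TPM of the α partners of β1 (left) and of β2 (right), 1 bar per library. On the left the share of Itga5 is 7.73% in the sham group and 12.2% after PNX, and on the right that of Itgam is 14.7% and 44.1%.

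Among the α subunits of leukocytes, 1 gene rose several fold while its relatives moved little or fell. Itgam (chromosome 7, 128062640 to 128118491, GRCm38.p6) encodes αM, known as CD11b, which pairs with β2 to form the complement receptor of myeloid cells. It had 2117 and 2229 normalized counts in the sham libraries against 9340.0 and 9437 after PNX. The libraries of a group lay close together and the groups far apart. The log2 fold change was 2.11 ± 0.028 (4.32-fold, adjusted p = 4.7e-57), the largest rise among the 41 genes on this scale, and relative to endothelial genes it was 2.37.

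Itgad and Itgal moved the opposite way. Itgad (chromosome 7, 128173933 to 128205504), which encodes αD, had 195 and 179 normalized counts in the sham libraries against 59.9 and 66.9 after PNX, so that the groups were far apart. It fell by 1.57 ± 0.15 on the log2 scale (2.96-fold lower, adjusted p = 2.2e-14), and by 1.31 relative to endothelial genes. Itgal, the LFA-1 subunit αL of lymphocytes and other leukocytes, had 5442 and 5613 normalized counts in the sham libraries against 4137 and 4022 after PNX (log2 fold change -0.44 ± 0.027, adjusted p = 8.1e-22), and -0.18 relative to endothelial genes. Itgax, which encodes CD11c of dendritic cells and alveolar macrophages, was the most abundant of them in the sham group and was higher by 0.14 ± 0.024 (6370.4 ± 106 to 7009.7 ± 50.7 normalized counts, adjusted p = 1.2e-06). Itgae, the αE subunit of intraepithelial lymphocytes, had 389 and 419 normalized counts in the sham libraries against 408 and 458 after PNX, which overlapped (adjusted p = 0.27). Relative to endothelial genes Itgae was higher by 0.36 on the log2 scale (adjusted p = 0.00014).

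Itgam moved from the third to the first place among the α partners of β2, and the other 3 kept their order. They summed to 109 TPM in the sham group and 154 TPM after PNX. Itgax held 50.2% of the sham sum and 38.3% of the post-PNX sum. Itgal held 33.6% and then 17.2%, and Itgad 1.58% and 1.42% in the sham libraries against 0.332% and 0.372% after PNX. Itgam held 14.6% and 14.9% in the sham libraries against 43.8% and 44.4% after PNX, so that it passed both Itgal and Itgax.

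Itgam, Itgax and Itgad are neighbours on chromosome 7, with 11034 bases between Itgam and Itgax and 23275 bases between Itgax and Itgad, and Itgal lies 727502 bases from Itgam. The 3 neighbours had log2 fold changes of 2.11, 0.14 and -1.57 in that order. Because adjacent genes differed this much, 250 bases are shown that end at the start of Itgam and Itgax in the RefSeq promoter table (GRCm38.p6, 5′ to 3′, plus strand). For Itgax the window ends at base 128129549, inside the gene, whose start at base 128129526 was used for the distances. Capitals mark matches, on either strand, to GAGGAA (bound by PU.1, a factor of myeloid cells), GGGCGG (Sp1), GGAATG (TEAD) and TGANTCA (AP-1).
Itgam, chr7:128062390-128062639: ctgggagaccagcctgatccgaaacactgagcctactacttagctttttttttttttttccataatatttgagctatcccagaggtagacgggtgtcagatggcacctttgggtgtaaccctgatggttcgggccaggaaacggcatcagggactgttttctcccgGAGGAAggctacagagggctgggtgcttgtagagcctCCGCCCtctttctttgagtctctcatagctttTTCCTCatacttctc
Itgax, chr7:128129300-128129549: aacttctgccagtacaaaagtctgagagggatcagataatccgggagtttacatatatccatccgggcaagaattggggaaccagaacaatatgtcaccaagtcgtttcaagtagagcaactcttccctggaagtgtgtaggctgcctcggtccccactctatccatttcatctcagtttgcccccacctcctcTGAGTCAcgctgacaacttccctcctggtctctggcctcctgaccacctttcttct

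The Itgam window held 2 matches to GAGGAA, at bases -84 to -79 on the gene's strand and at -15 to -10 on the other strand, and 1 match to GGGCGG. Of the 32851 RefSeq promoters of this length 23.3% held GAGGAA and 32.7% held GGGCGG. The Itgax window held 1 match to TGANTCA, a motif found in 6.75% of promoters, and none to the others. Promoters were found for 28 of the 41 genes, with 34 windows in all. Itgad was not among them, so its window could not be set beside those of its neighbours. Letters that match are a description of these windows, and occupancy was not measured.

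Genes that mark leukocytes also changed, in directions that differed by kind. The 6 pan-leukocyte genes summed to 55934 and 55849 normalized counts in the sham libraries against 60434 and 61255 after PNX, with 4 higher and 1 lower. Macrophage and monocyte genes were higher in 9 of 9 cases, and their sum went from 26331 and 25837 to 59742 and 59496. C1qb, a complement gene of tissue macrophages, was higher by 2.98 ± 0.035 on the log2 scale. The 5 genes of cavity macrophages, cells rich in αM, were higher, and their sum went from 2219 and 2276 to 8538 and 8709.8. Alveolar macrophage genes were higher in 2 and lower in 4 of 7 cases, and their sum went from 85249.6 and 84597 to 215578 and 211134, most of it from the chitinase-like gene Chil3. Neutrophil genes were higher in 5 and lower in 4 of 10 cases, with sums of 12186 and 12352 in the sham libraries against 13748 and 13554 after PNX.

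B cell, T cell and most dendritic cell genes moved downward with Itgal, Itga4 and Itgb7 when scaled to all genes. Marker genes are given on this scale only. B cell genes were lower in 6 of 6 cases (sums of 7005 and 6988 in the sham libraries, 4124 and 3958 after PNX) and T cell genes in 7 of 7 (2383 and 2448, then 1351 and 1362). Dendritic cell genes were lower in 4 of 6 cases (9294 and 8957, then 6442 and 6435). For the 6 NK cell genes the adjusted p lay between 0.046 and 0.63. Eosinophil genes were higher in 3 of 4 cases (266 and 214, then 517 and 499), and mast cell genes were higher in 4 and lower in 1 of 6 (372 and 385, then 1021 and 998). In bulk RNA such as this, fewer cells of a type and less RNA per cell cannot be told apart. How much of each integrin value came from leukocytes bound to the beads was not tested.

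**Figure D4:**
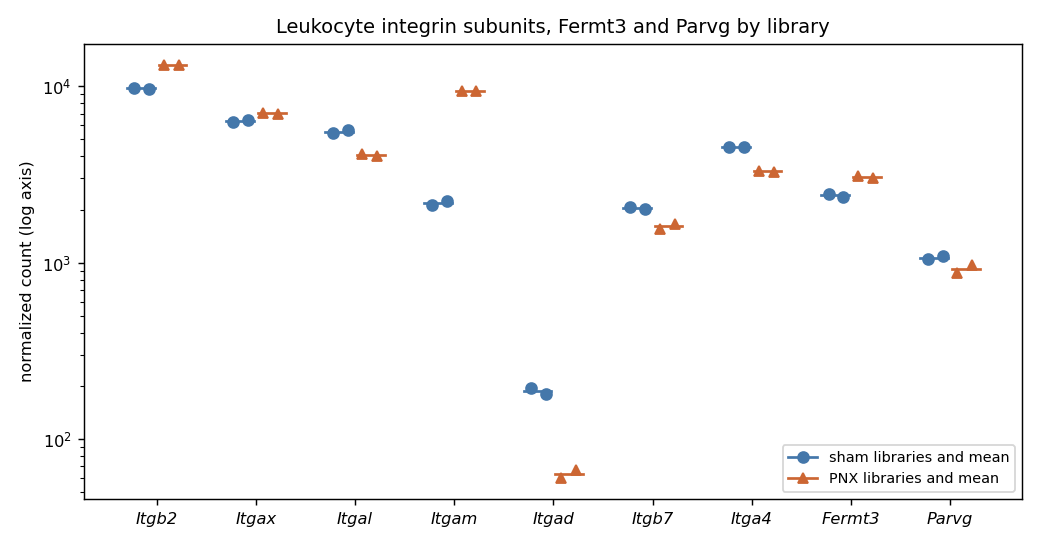
Normalized counts of leukocyte integrin subunits and the haematopoietic adaptors Fermt3 and Parvg in each library on a log axis (circles, sham; triangles, post-PNX; lines, group means of 2 libraries). Itgam is at 2117 and 2229 in the sham libraries and at 9340.0 and 9437 after PNX, whereas Itgad, Itgal, Itgb7 and Itga4 are lower after PNX (Itgb7 did not pass the test relative to endothelial genes).

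Of the 9 β subunits 6 were higher and 3 were lower after PNX, with a median log2 fold change of 0.27. Itgb1 had 53681 and 53283 normalized counts in the sham libraries against 66881 and 67918 after PNX. This rise of 26.0% (log2 fold change 0.33 ± 0.016, adjusted p = 5.3e-27) was far larger than the difference between libraries of a group. Itgb2, the β subunit that leukocytes share among αL, αM, αX and αD, had 9822 and 9587 in the sham libraries against 13245 and 13202 after PNX (0.45 ± 0.021, adjusted p = 1.2e-27). The 6 higher subunits were also higher relative to endothelial genes, with 0.59 for Itgb1 and 0.71 for Itgb2.

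Itgb8 (chromosome 12, 119162803 to 119238276) encodes β8, which pairs with αv and activates latent TGFβ. Its RNA was scarce, with 28 and 18 reads in the sham libraries against 76 and 79 after PNX, or 25.4 and 18.3 and then 74.7 and 88.0 normalized counts. The groups did not overlap, and the log2 fold change was 1.87 ± 0.24 (3.66-fold, adjusted p = 3.4e-10). Its upstream window (RefSeq, GRCm38.p6, minus strand, 5′ to 3′), shown because Itgb8 was the β subunit with the largest rise on this scale, held no match to the 4 motifs.
Itgb8, chr12:119238277-119238526: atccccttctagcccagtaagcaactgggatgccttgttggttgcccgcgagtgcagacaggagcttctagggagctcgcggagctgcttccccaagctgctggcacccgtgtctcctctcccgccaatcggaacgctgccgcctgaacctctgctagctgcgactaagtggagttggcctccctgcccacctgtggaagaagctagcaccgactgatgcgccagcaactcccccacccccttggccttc

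The other rises among β subunits were moderate. Itgb6, the epithelial partner of αv, was higher by 0.39 ± 0.069 on the log2 scale (486 ± 13.1 to 635 ± 56.6 normalized counts, adjusted p = 1.5e-06), while the summed epithelial genes were lower. Itgb3 and Itgb4, the partners of αv and αIIb and of α6, were both higher by 0.27 (adjusted p = 2.2e-08 and 3.5e-08). Itgb5, which also pairs with αv, was lower by 0.13 ± 0.023 (adjusted p = 1.1e-06), but higher by 0.13 relative to endothelial genes. Itgb7, the β subunit of gut-homing lymphocytes, went from 2070.0 and 2016 normalized counts to 1559 and 1657 (-0.35 ± 0.040, adjusted p = 1.6e-11), and did not pass relative to endothelial genes (-0.09, adjusted p = 0.051). Itgb2l, a relative of Itgb2, had 28.1 and 47.9 normalized counts in the sham libraries against 15.7 and 23.4 after PNX (adjusted p = 0.0053). It did not pass with DESeq2 (adjusted p = 0.094), with summed transcripts (adjusted p = 0.023) or when the second sham library (adjusted p = 0.23) or the first post-PNX library (adjusted p = 0.13) was left out. Its libraries varied more than those of its abundant relatives. Reads that fit both Itgb2 and Itgb2l, or both Itgax and Itgad, may have been assigned to either gene, since the counting rule for such reads is not given.

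The balance of RNA between α and β subunits moved toward the β subunits. Summed TPM of the 18 α genes was 709 in the sham group and 681 after PNX, and that of the 9 β genes was 691 and 822. The ratio of the α to the β sum was 1.02 and 1.03 in the sham libraries against 0.834 and 0.823 after PNX. Of 24 known αβ pairs, 11 had both subunits higher, 1 had both lower (Itga4 with Itgb7), and 9 had subunits that moved in opposite directions, as in α1β1, α3β1, α6β1, α8β1, α4β1 and α6β4. The remaining 3 pairs contained Itga10, Itga11 or Itgae, which did not pass. Since 12 of the pairs share Itgb1, these counts are not independent. Relative to endothelial genes Itgb5, Itga11 and Itgae were higher, and Itga3, Itga6 and Itgb7 did not pass. Pairs with Itga3, Itga6 or Itgb7 in which both subunits had passed, among them Itga4 with Itgb7, lose their place in the count. The pairs of Itga11 with Itgb1 and of Itgav with Itgb5 have both subunits higher on that scale. Among β partners of αv, Itgb1 made up 82.2% of summed TPM in the sham group and 85.8% after PNX, and Itgb5 15.4% and 11.6%. Despite its fold change, Itgb8 made up 0.0455% and 0.140%.

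The talins and kindlins, which bind β tails and switch integrins on, showed no common rise. Tln1, the talin of most cells, had 28589 and 29248 normalized counts in the sham libraries against 29314 and 29918 after PNX, a difference that did not pass (log2 fold change 0.03, adjusted p = 0.091) but did relative to endothelial genes (0.30, adjusted p = 5.1e-16). Tln2, a talin of muscle and brain, was lower by 0.36 ± 0.041 (adjusted p = 7.3e-12) and by 0.10 relative to endothelial genes (adjusted p = 0.022). Fermt2, the widely expressed kindlin-2, went from 21205 and 20878 normalized counts to 17892 and 18325 (-0.22 ± 0.019, adjusted p = 2.0e-15), and had 0.04 relative to endothelial genes. Fermt3, kindlin-3 of blood cells, had 2447 and 2365 in the sham libraries against 3088 and 3027 after PNX (0.35 ± 0.033, adjusted p = 3.7e-14). Its rise stood beside those of Itgb2 and of the macrophage genes, and the part of blood cells in it was not tested.

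Fermt1 (chromosome 2, 132904177 to 132946036) encodes kindlin-1, the kindlin of epithelia. It had 84 and 59 reads in the sham libraries against 28 and 24 after PNX, or 76.1 and 60.1 and then 27.5 and 26.7 normalized counts, without overlap. The log2 fold change was -1.33 ± 0.23 (2.52-fold lower, adjusted p = 1.4e-06), and -1.07 relative to endothelial genes. The call as beyond 1 on the log2 scale did not hold in glmTreat, which tests for a change of that size (adjusted p = 0.50), and Fermt1 was not tested when a mean of at least 50 counts was required. Epithelial genes were lower in 9 and higher in 2 of 12 cases, with Scgb1a1 called lower (-1.04), and the part of epithelial cells in the Fermt1 value was not tested. The upstream window of Fermt1 (RefSeq, GRCm38.p6, minus strand, 5′ to 3′), the adaptor with the largest change on this scale, held 1 match to GGGCGG, in capitals.
Fermt1, chr2:132946037-132946286: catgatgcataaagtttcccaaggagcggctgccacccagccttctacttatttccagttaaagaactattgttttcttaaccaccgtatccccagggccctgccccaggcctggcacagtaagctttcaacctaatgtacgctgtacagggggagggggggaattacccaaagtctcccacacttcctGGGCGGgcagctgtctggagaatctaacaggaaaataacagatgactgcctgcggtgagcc

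Within the complex of ILK, PINCH and parvin, Lims2 was the gene that changed most. Lims2 (PINCH2) had 7905 and 7893 normalized counts in the sham libraries against 4952 and 4833 after PNX. The libraries of each group lay close together, and the fall was 38% of the sham mean (log2 fold change -0.69 ± 0.025, adjusted p = 7.9e-34). Relative to endothelial genes it fell by 0.43 on the log2 scale (adjusted p = 3.7e-16), one of the 7 falls that held on both scales.

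Its paralog Lims1 (PINCH1), which binds the same site of ILK, had 11507 and 10561 normalized counts in the sham libraries against 11348 and 11202 after PNX. These overlapped, and the test was not passed (log2 fold change 0.03, adjusted p = 0.27). In TPM, the PINCH sum was 248 in the sham group and 184 after PNX. Lims2 held 64.5% and 66.4% of that sum in the sham libraries against 53.6% and 53.3% after PNX, a shift of share that does not depend on scaling. Ilk itself had 9855 and 9555 normalized counts and then 10146 and 9908 (0.05, adjusted p = 0.057). Relative to endothelial genes both Ilk and Lims1 were higher, by 0.31 and 0.29.

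The parvins link the complex to actin and changed little. Parva (α-parvin) was higher by 0.08 ± 0.022 (8106 ± 24.4 to 8555 ± 39.9 normalized counts, adjusted p = 0.0021). Parvb (β-parvin) was lower by 0.10 ± 0.021 (adjusted p = 3.6e-05), and Parvg, the parvin of blood cells, by 0.22 ± 0.053 (adjusted p = 0.00025). Pan-leukocyte genes were higher in 4 and lower in 1 of 6 cases, and the part of blood cells in the Parvg value was not tested. Parvb and Parvg, which lie 8.5 kb apart on chromosome 15, were not lower relative to endothelial genes (0.16 and 0.04). Their sum was 194 TPM in the sham group and 183 TPM after PNX, of which Parvb held 60.2% and 58.0% and Parva 32.6% and 35.6%. Parva did not pass when the first sham library (adjusted p = 0.012), the first post-PNX library (adjusted p = 0.012) or the second post-PNX library (adjusted p = 0.026) was left out, nor with DESeq2 (adjusted p = 0.034) or with counts summed over transcripts (adjusted p = 0.012). Parvg did not pass without the first post-PNX library (adjusted p = 0.058) or with DESeq2 (adjusted p = 0.020).

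**Figure D5:**
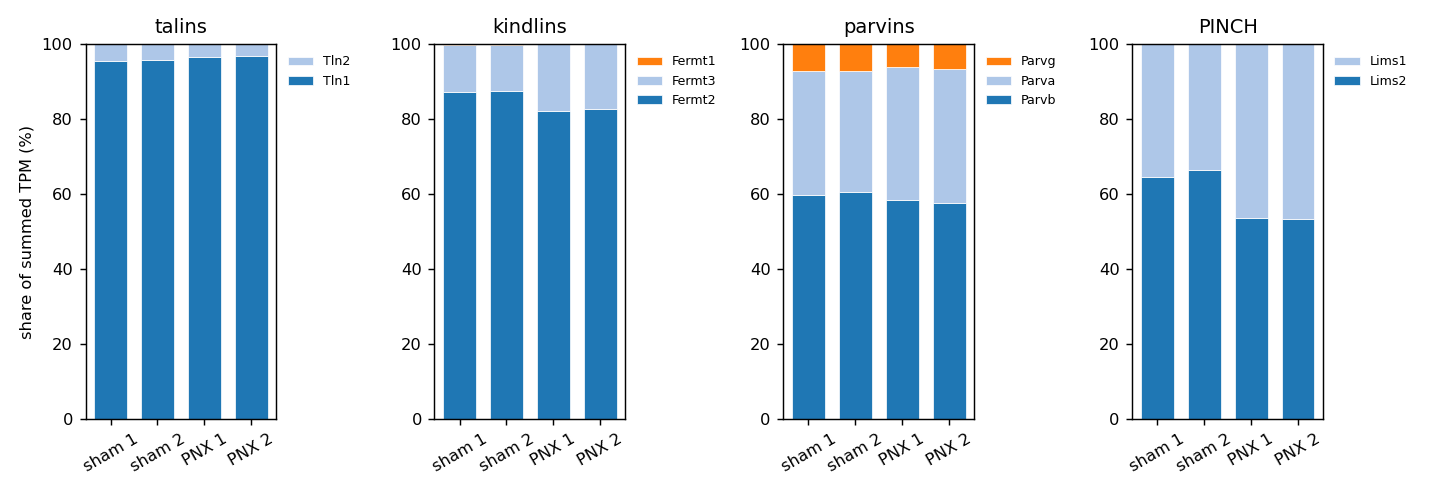
Share of each paralog in the summed TPM of the talins, kindlins, parvins and PINCH proteins, 1 bar per library. Lims2 makes up 64.5% and 66.4% of PINCH in the sham libraries against 53.6% and 53.3% after PNX, Fermt3 makes up 12.5% and 17.5% of the kindlins as group means, and Tln1 makes up 95.6% and 96.7% of the talins.

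The 3 focal adhesion adaptors were lower after PNX, but none was lower relative to endothelial genes. Ptk2, focal adhesion kinase, had 9333 and 9432 normalized counts in the sham libraries against 7986 and 7821 after PNX (-0.25 ± 0.022, adjusted p = 5.7e-15, and 0.01 relative to endothelial genes). Pxn, paxillin, was lower by 0.20 ± 0.021 (adjusted p = 5.1e-13, and 0.06 relative to endothelial genes). Vcl, vinculin, the most abundant of them at 148 TPM in the sham group, was lower by 0.07 ± 0.019 (adjusted p = 0.00089) and higher by 0.19 relative to endothelial genes (adjusted p = 5.1e-11). Vcl did not pass when the second sham library (adjusted p = 0.018) or the second post-PNX library (adjusted p = 0.01002) was left out.

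For 13 of the 41 genes the tables held more than 1 transcript, with 16 other transcripts in all. Their log2 ratios of mean CPM differed from that of the chosen transcript by at most 0.0245. Reads that overlap several transcripts were counted for each, which limits how far the transcripts of a gene could differ.

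Other genes of the pathway moved in both directions. Of 83 listed genes 77 were tested, and 34 were higher and 26 were lower (64 and 4 relative to endothelial genes), against 29.3% and 27.8% of all genes tested. Of 19 switches and inhibitors of integrin activation 6 were higher and 8 were lower, with a median of -0.07. Kank1, a talin-binding protein of adhesion rims, had the highest change (1194 ± 36.2 to 2098 ± 45.2 normalized counts, 0.81 ± 0.042). Rasgrp2, which activates RAP1 upstream of talin, had the lowest (6154 ± 40.6 to 4462 ± 10.9, -0.46 ± 0.026). Flna, filamin A, which competes with talin for β tails, had the highest sham count and was higher by 0.26 ± 0.017. Of 30 genes of downstream signalling 10 were higher and 12 were lower, with a median of -0.02. Tns1, tensin 1, had the highest sham count of these and the lowest change (55976 ± 721 to 40656 ± 197, -0.46 ± 0.017). Tns4 had the highest (0.51 ± 0.17, adjusted p = 0.007), at 72.1 ± 3.29 and 102 ± 22.7 normalized counts, and did not pass with DESeq2 (adjusted p = 0.12), with summed transcripts (adjusted p = 0.024), without the first sham library (adjusted p = 0.051), the second sham library (adjusted p = 0.017) or the first post-PNX library (adjusted p = 0.35).

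Of 28 integrin ligands tested, 18 were higher, 6 were lower and 6 were called, each of them higher, and the median change was 0.33 on the log2 scale. Of all genes tested 29.3% were higher, 27.8% were lower and 5.9% were called higher. Tnc, tenascin C, bound by α9 and αv integrins, had the highest change, from 1463 ± 77.2 to 8747 ± 27.2 normalized counts (2.58 ± 0.031, adjusted p = 1.4e-59). The others called were Col1a1, Fn1, Col1a2, Spp1 and Fbn1, which encode collagen I chains, fibronectin, osteopontin and fibrillin 1. Fn1, the ligand of α5β1, went from 27121 ± 189 to 126149 ± 1086 normalized counts (2.22 ± 0.017). Col4a1, a chain of basement membrane collagen and a ligand of α1β1, had the highest sham count and was higher by 0.87 ± 0.016, while its receptor subunit Itga1 was lower. Lama5, a laminin chain read by α3β1 and α6β1, had the lowest change (-0.26 ± 0.020, and 0.00051 relative to endothelial genes). Vcam1, the ligand of α4β1, was higher by 0.44 ± 0.024 where Itga4 was lower. Fibroblast genes, which include the collagen I chains of the ligand list, summed to 66092 and 66798 normalized counts in the sham libraries against 231028 and 232673 after PNX, with 6 of 8 higher. Mesothelial genes were higher in 6 of 6 cases (8061 and 8056, then 19533 and 19607). The part of these cells in the ligand values was not tested.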

How the data were processed

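ECs of 4 libraries were measured by RNA-seq. According to the submitters' processing notes and the methods of the study, reads were aligned with STAR to mm10 (GRCm38) and differential expression was computed with DESeq2. The counting program is not given in the sources used here. The authors deposited whole-number counts for 33068 transcripts, without normalization, and beside them FPKM and TPM values, both scaled by length and depth. Counts were used for tests, deposited TPM values for levels between genes and for shares, and deposited FPKM values for a check of those shares.

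Each symbol was represented by its transcript with the highest total count. In R 4.3.3, edgeR 4.0.16 was used with filterByExpr, TMM factors (0.9985 to 1.003) and the quasi-likelihood F test without covariates, with Benjamini-Hochberg adjustment over 16208 genes. A gene was called at an adjusted p under 0.01 and a log2 fold change beyond 1, the thresholds of the study. The standard error is the log2 fold change divided by the square root of F. The steps were tested on simulated data. Alternatives were other scalings, filters, DESeq2 1.42.0, summed transcripts, the replicate number as a block, glmTreat and each library left out.

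Libraries of a group differed by little more than counting noise (mean chi-square per gene 1.76 for sham and 1.52 for PNX, against 133 between groups). No batch is named. Per the methods each library is a pool of mice. The p-values and standard errors rest on the small spread between libraries of a group. How far that spread covers variation between animals was not tested.

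The 41 genes, the pathway and marker lists and the tests were chosen with earlier results of these data known. Named are all 41 genes and, in each pathway list, the genes with the highest and lowest change and the highest sham count. In each marker list they were to be the gene with the highest sham count and the one with the largest change, of which a few are printed. Fn1, Vcam1, C1qb, Pf4, Sftpc, Scgb1a1, Ptprc and the called ligands were named after their values were seen where the rule does not give them. Fga, Fgb, Fgg and Madcam1 were not tested because of low counts, and Tns2, Ccn1, Adgre1 and Siglecf were not found under these symbols. Promoter windows and coordinates are those of RefSeq, GRCm38.p6.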

Additional observations from a re-analysis of the deposited data

How the results depend on the processing

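Scaling to the 12 endothelial genes was the choice that mattered most. It left 7 members lower, put 64 pathway genes higher and 4 lower, and turned the log2 fold changes of Itga10 (0.12), Itga6 (0.0021), Itgb5 (0.13), Fermt2 (0.044), Parvb (0.16), Parvg (0.042), Ptk2 (0.014), Pxn (0.056), Vcl (0.19) and Lama5 (0.00051). The whole shift of 0.26 follows from the fall of the endothelial genes, and whether those genes or all genes are the better reference was not tested. Without the second sham library Lims1 had -0.029, and without the first it was higher by 0.095 (adjusted p = 0.00087). With each library left out in turn, between 15 and 16 members were higher and between 17 and 19 lower, 2 were called higher and 2 to 3 called lower, and 28 to 30 pathway genes were higher and 21 to 26 lower. A mean of at least 50 counts removed Fermt1 and Itgb2l and left 1 member called lower, Itgad, and glmTreat, which tests for a log2 fold change beyond 1, also left 1, Itgad (adjusted p = 0.0012), and lost Fermt1 (adjusted p = 0.50). DESeq2's Wald test gave 15 members higher and 17 lower, losing Parva, Parvg and Itgb2l, and summed transcripts gave 15 and 18, losing Parva and Itgb2l. The direction and the side of the threshold were kept by 22 of 41 members under every alternative, and by 36 of 41 under those other than endothelial scaling. The titles number the replicates and name no mice. The deviations of libraries with the same number had a correlation of 0.0202 across genes. With this replicate block 16 members were higher and 19 lower, and 34 pathway genes were higher and 29 lower. Shares from FPKM equalled those from TPM. Depth limits Itgb8, Fermt1, Itgb2l, Itga11 and Tns4, which had the fewest reads among the genes named.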
